A study of Mus musculus with 5 samples.

Results

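Membrane mucins are large glycoproteins anchored in the cell surface. Their ectodomains carry dense O-linked sugars, and in several of them a cytoplasmic tail binds kinases and adaptor proteins. In ducts and gut they form part of the surface coat, and in human pancreatic cancer Muc1 and Muc4 are known as proteins that increase with the disease. The 5 members described here are the listed genes Muc1, Muc3, Muc4, Muc13 and Muc20, out of 27998 genes in the deposited table. They were chosen by name and not by a measured value, and all 5 were found in the table by symbol and Ensembl identifier.

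They were measured as counts of UMIs (unique molecular identifiers, which tag each captured mRNA once) in single cells from 5 mouse tissues with 1 library each, which gives 5 groups of untreated mice. The groups are normal pancreas at 60 days, KIC tumour at 40 days (early) and at 60 days (late), KPfC tumour at 60 days and KPC tumour at 6 months. The late KPfC mouse was on C57BL/6 and the other 4 on a mixed C57BL/6 and FVB background, so strain cannot be told apart from genotype wherever late KPfC is one side, and among the tumours age differs except between late KIC and late KPfC. The labels give the model names only. As background, all 3 models use Cre recombinase in pancreatic epithelium from a Ptf1a or Pdx1 driver, with deletion of Ink4a (Cdkn2a) in KIC, deletion of Trp53 in KPfC and a point-mutant Trp53 allele in KPC; this is not the whole of each genotype. No group has a second library, so no test between conditions was possible, and how far another mouse would differ is not known. The intervals below are exact, at 95%, and cover counting error only.

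Of 11636 barcodes, 10718 were kept as cells, between 836 (late KIC) and 3529 (early KIC) a library, with median depths from 1776 UMIs in early KIC to 9331.5 in late KIC. Cells were sorted into 4 compartments by marker genes that include no mucin. Acinar cells, which make digestive enzymes, numbered 1413 in normal pancreas, 441 in early KIC, 6 in late KIC and 0 in the other 2 tumours. Epithelial or tumour cells, called by keratins, Epcam and claudins, numbered 9, 356, 280, 491 and 62 in the order of the groups above. Mesothelial cells, the lining of the organ surface, numbered 45, 35, 36, 161 and 51, and all remaining cells (fibroblast, immune, endothelial, endocrine and unnamed) 919, 2697, 514, 2281 and 921. The epithelial or tumour compartment held all 14 of its markers above 0 in each tumour library. In early KIC 349 of these cells lay in a cluster led by Tstd1, Ambp, Wfdc18 and Spp1, and the cells also carried acinar marker RNA at a summed 35735 CPM (UMIs of a gene per 1e+06 UMIs of the cells summed), beside 33388 CPM in the remaining cells of that library and 424836 CPM in its acinar cells. In late KIC 242 of the 280 cells formed a cluster with high Vim (6173 CPM) and low Epcam (34.2 CPM); it kept the keratins Krt8 (3259 CPM) and Krt18 (4610.5 CPM), and Ptprc, the pan-leukocyte gene, stood at 4.41 CPM. None of the 14 epithelial markers was among its 10 leading genes, and it held 10 of 10 mesothelial markers at a summed 1339 CPM, beside 2526 CPM in mesothelial cells and 3475 CPM in the remaining epithelial or tumour cells of that library (Krt19 is on both lists); the part of such cells in its values was not tested. This cluster is called Vim-high here and the other epithelial or tumour cells Epcam-high, a split made after the data were seen. Its level of Col1a1, a fibroblast collagen, was 52.2 CPM. Altogether 52 barcode sequences occurred in more than 1 library.

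Muc1 is encoded on chromosome 3 (89229057 to 89233381, plus strand; positions in GRCm38 from GENCODE M21), and Muc3 on chromosome 5 (137134922 to 137149322, minus strand). The other 3 genes lie on chromosome 16: Muc4 at 32735886 to 32782391 on the plus strand, Muc20 at 32777419 to 32797435 on the minus strand and Muc13 at 33794037 to 33819934 on the plus strand. Muc4 and Muc20 overlap tail to tail over 4973 bases. The last exon of Muc20, from which 3′ tags come, shares 627 of its 1728 bases with Muc4 exons on the opposite strand, while the last exon of Muc4 (566 bases) holds no Muc20 exon. The counting step's use of strand is not stated in the labels, so the split of reads between this pair is uncertain, more so for Muc20. A gene named Muc3a is annotated on the same chromosome as Muc3, and whether reads are shared between them was not tested.

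The 250 bases before the start of transcription are shown for the 4 members with at least 20 UMIs in a comparison of tumour cells, because Muc4 and Muc20 had nearly the same pattern over libraries while Muc1 and Muc3 had others. Sequences are from RefSeq, build GRCm38.p6, where all 5 members had an entry. Capitals mark 3 motifs searched on both strands: TATAAA, the E-box CACCTG and the GC box GGGCGG.
Muc1 (chr3:89228806-89229055, plus strand): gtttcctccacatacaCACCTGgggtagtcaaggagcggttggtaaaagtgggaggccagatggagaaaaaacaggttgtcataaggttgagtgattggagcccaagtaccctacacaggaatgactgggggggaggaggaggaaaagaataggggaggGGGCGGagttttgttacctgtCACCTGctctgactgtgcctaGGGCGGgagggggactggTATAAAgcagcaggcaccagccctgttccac
Muc4 (chr16:32735636-32735885, plus strand): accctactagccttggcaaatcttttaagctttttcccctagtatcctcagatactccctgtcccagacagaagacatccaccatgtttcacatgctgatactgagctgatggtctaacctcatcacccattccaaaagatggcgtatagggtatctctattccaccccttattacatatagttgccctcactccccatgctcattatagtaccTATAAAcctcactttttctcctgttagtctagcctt
Muc20 (chr16:32797436-32797685, minus strand): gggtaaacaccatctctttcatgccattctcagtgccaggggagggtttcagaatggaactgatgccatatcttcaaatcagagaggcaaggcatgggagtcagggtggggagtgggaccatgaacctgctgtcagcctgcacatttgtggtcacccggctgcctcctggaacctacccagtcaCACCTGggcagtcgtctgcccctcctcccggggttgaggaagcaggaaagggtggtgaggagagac
Muc3 (chr5:137166047-137166296, minus strand): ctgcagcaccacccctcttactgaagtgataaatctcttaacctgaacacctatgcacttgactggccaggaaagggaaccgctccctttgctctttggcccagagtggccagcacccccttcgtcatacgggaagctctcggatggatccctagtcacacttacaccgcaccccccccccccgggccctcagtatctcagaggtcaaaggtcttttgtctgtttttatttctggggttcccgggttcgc
Muc1 held 1 TATAAA (31 bases before the start), 2 E-boxes and 2 GC boxes. Muc4 held 1 TATAAA (36 bases before the start) and neither of the others, Muc20 held 1 E-box (66 bases before the start), and Muc3 held none of the 3. Over 32851 promoters of the same length, 12.4% held TATAAA, 17.2% the E-box and 32.7% the GC box on either strand. These matches describe the letters only. The RefSeq start of Muc3 lies outside the GENCODE gene given above.

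Muc1 was the member found in every epithelial compartment. In acinar cells of normal pancreas it stood at 40.6 CPM (interval 36.4 to 45.2, 338 UMIs), with a UMI in 280 of 1413 cells (19.8%, 17.8 to 22.0). In acinar cells of early KIC it stood at 54.3 CPM (41.4 to 70.1, 59 UMIs), with a UMI in 54 of 441 cells. The 6 acinar cells of late KIC held 5 Muc1 UMIs. No UMI of Muc3, Muc4, Muc13 or Muc20 was found in any acinar cell; in normal pancreas a count of 0 allows 0.361 CPM and in early KIC 2.76 CPM. Acinar cells of the 2 libraries that have them in number were thus alike in holding Muc1 and none of the other 4.

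For acinar cells of early KIC against normal pancreas, the sum of the 5 members equals Muc1, with a log2 ratio of 0.42 (1.34-fold, interval 0.996 to 1.77). A gene was called higher or lower only where it differed by 2-fold or more, with at least 20 UMIs and an interval on one side of 1; Muc1 was not called. In this comparison 47.9% of 5513 genes were called higher, 0.2% were called lower, and the all-gene median log2 ratio was 1.13, so Muc1 lay below the general shift. With acinar secretory, haemoglobin and mitochondrial genes left out of the total, the sum was lower in early KIC, at a log2 ratio of -0.58, so the direction depends on the denominator.

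**Figure D1:**
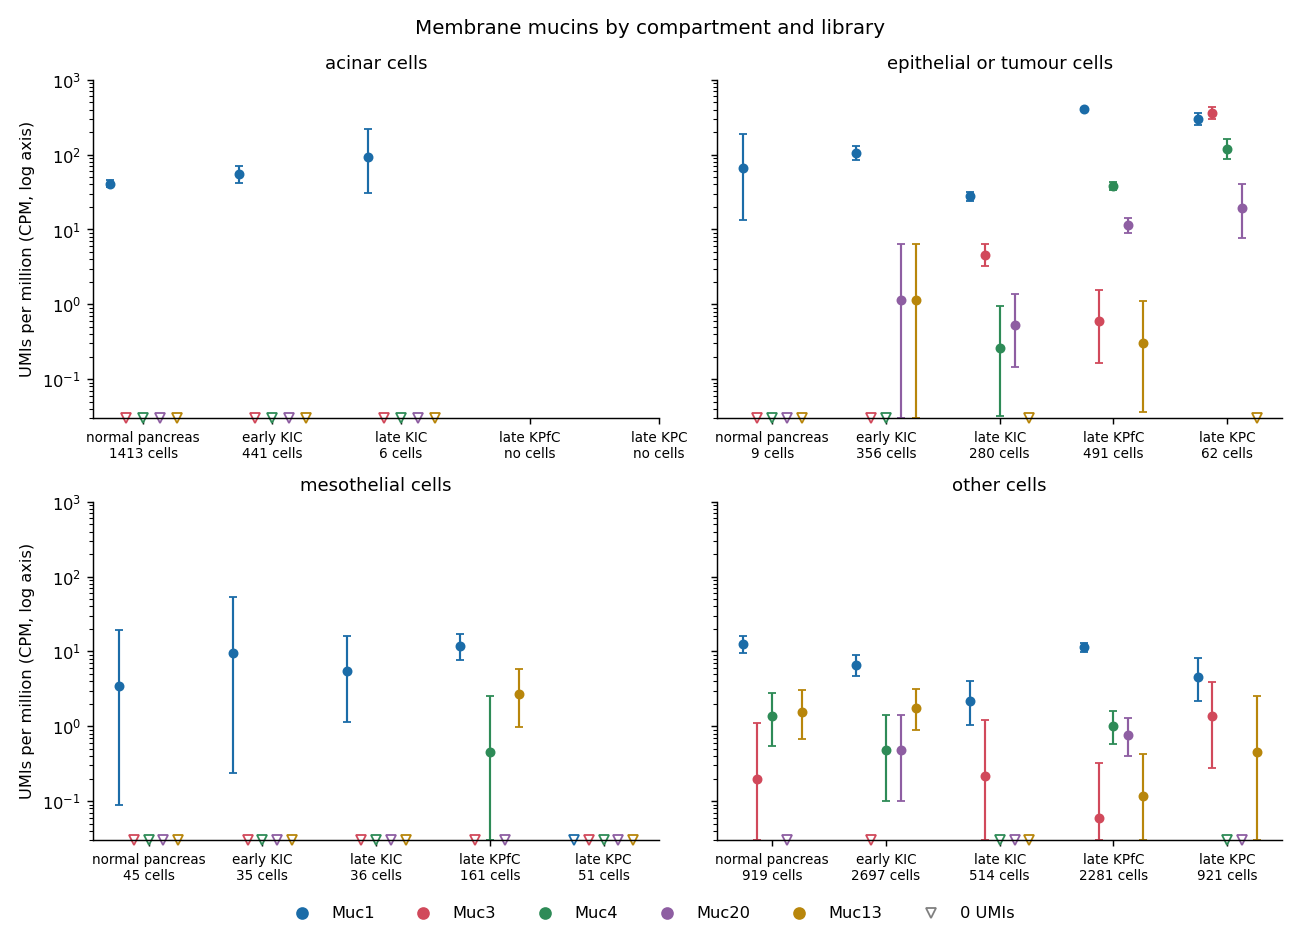
Level of each membrane mucin (CPM, log axis) by compartment in the 5 libraries, with exact 95% intervals; open triangles on the axis mark 0 UMIs, and intervals that reach below the axis are cut there. Muc1 is the only member in acinar cells, 4 members reach over 10 CPM in epithelial or tumour cells of late KPC, and mesothelial and other cells stay at or under 12.5 CPM for every member.

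In epithelial or tumour cells Muc1 stood at 65.4 CPM in normal pancreas (3 UMIs in 9 cells), 105 CPM in early KIC (85.0 to 129), 27.7 CPM in late KIC (24.1 to 31.8), 405 CPM in late KPfC (390 to 421) and 299 CPM in late KPC (245 to 361). From high to low the order of the 4 tumour libraries was late KPfC, late KPC, early KIC and late KIC, and no neighbouring intervals overlapped. The interval of normal pancreas, 13.5 to 191 CPM, spans the values of both KIC libraries. The share of cells with a Muc1 UMI was 21.3% in early KIC, 24.3% in late KIC, 80.0% in late KPfC and 46.8% in late KPC. With every cell thinned to 1000 UMIs the shares were 8.43%, 3.57%, 33.4% and 18.2% (7 late KPC cells were too shallow and left out), beside 0.59%, 0.19%, 1.71% and 0.41% in the remaining cells of the same libraries.

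Muc3, an intestinal-type membrane mucin, was at 0 UMIs in epithelial or tumour cells of normal pancreas and early KIC (a count of 0 allows 3.40 CPM in early KIC). It stood at 4.62 CPM in late KIC (35 UMIs in 7 cells), 0.604 CPM in late KPfC (4 UMIs in 4 cells) and 363 CPM in late KPC (303 to 431, 131 UMIs in 15 of 62 cells). The late KPC level thus stood far above the other 4 libraries, but it came from few cells: the 2 cells with most Muc3 held 49 and 40 UMIs, 67.9% of the total. Without these 2 cells the level was 134 CPM (96.4 to 181), still above every other library. In late KIC the 2 highest cells held 15 and 6 of the 35 UMIs, and without them the level was 1.86 CPM.

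Muc4, which carries EGF-like domains and is known to bind the receptor Erbb2, was not seen in epithelial or tumour cells of normal pancreas or early KIC. It stood at 0.264 CPM in late KIC (2 UMIs in 1 cell), 38.3 CPM in late KPfC (33.8 to 43.3, 132 of 491 cells) and 119 CPM in late KPC (86.2 to 160, 19 of 62 cells). Muc20, known to bind the receptor Met, followed at lower levels: 1.13 CPM in early KIC (1 UMI), 0.529 CPM in late KIC (4 UMIs), 11.5 CPM in late KPfC (9.04 to 14.4) and 19.4 CPM in late KPC (7.80 to 39.9). Both were highest in late KPC; for Muc4 the interval lies above that of late KPfC, and for Muc20 the 2 intervals overlap. Muc13, a mucin of gut epithelium, had 1 UMI in early KIC, 2 in late KPfC and 0 elsewhere in epithelial or tumour cells.

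Unlike lengths of mRNA do not enter these levels, since a 3′ tag counts a transcript once, although capture can differ between genes. On that scale the order within early KIC was Muc1 (97.9% of the UMIs of the 5 members), then Muc13 and Muc20 with 1 UMI each. Within late KIC it was Muc1 (83.7%), Muc3 (13.9%), Muc20 and Muc4, the last pair not separable. Within late KPfC it was Muc1 (88.9%), Muc4 (8.41%), Muc20 (2.52%), then Muc3 and Muc13 within each other's intervals. Within late KPC Muc3 (45.3%) and Muc1 (37.4%) could not be separated, Muc4 (14.9%) was lower, and Muc20 (2.42%) lower again. Muc1 was therefore first in 3 of the 4 tumour libraries. The first place in late KPC depends on the scale: Muc1 led it, at 299 against 134 CPM, without the 2 cells named above, and also as a mean of per-cell CPM (320 against 159) and after thinning (200 against 109). Thinned counts are small there, 11 UMIs of Muc1, 9 of Muc4 and 6 of Muc3. The place of Muc4 below Muc3 depends on the scale too. After thinning Muc4 stood at 164 CPM, above Muc3. Without the 2 cells with most Muc3, the Muc3 interval (96.4 to 181 CPM) overlaps that of Muc4 over all 62 cells (86.2 to 160).

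The late KIC value is an average of unlike cells, as the plot of the split late KIC library shows. In its 38 Epcam-high cells Muc1 stood at 266 CPM (224 to 313), with a UMI in 29 of 38 cells. In its 242 Vim-high cells Muc1 stood at 9.39 CPM (7.26 to 12.0), with a UMI in 39 cells, although these cells were deeper (median 23699.5 against 10368.5 UMIs). That is 28.3-fold lower (21.0 to 38.4). Of 35 Muc3 UMIs 34 lay in the Epcam-high cells (62.7 against 0.142 CPM, 441-fold, 73.9 to 17909), as did both UMIs of Muc4 and all 4 of Muc20. Both members measured with at least 20 UMIs, Muc1 and Muc3, were called lower in the Vim-high cells, where 7.4% of 10482 genes were lower and 4.97% higher. Clusters of cells cannot be tested against each other as groups of samples, and Epcam and Vim set the names of the 2 sets. The Vim-high set held 92.8% of the UMIs of late KIC epithelial or tumour cells.

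**Figure D2:**
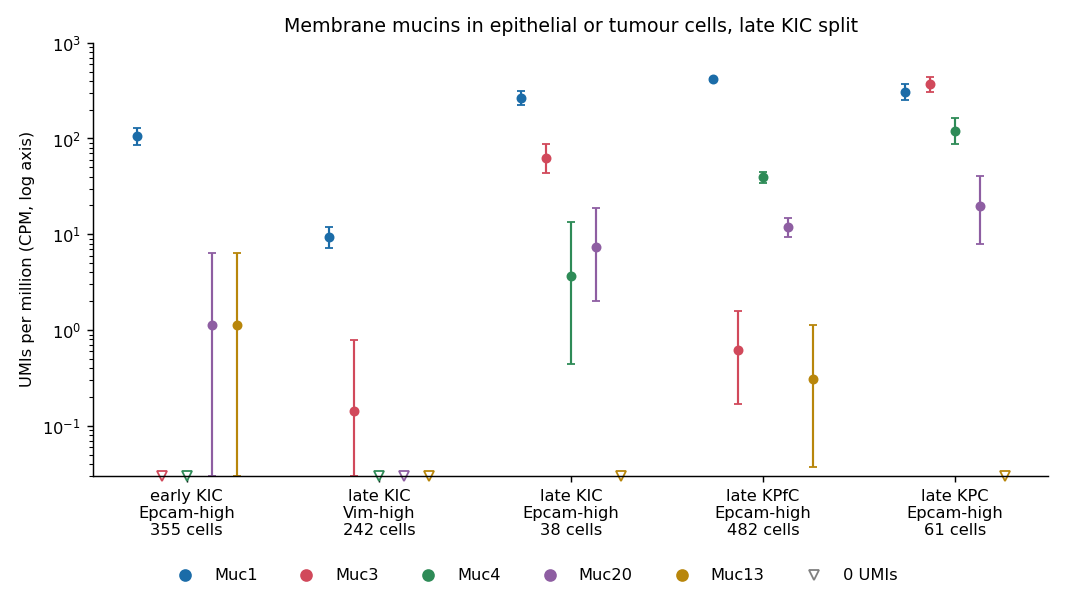
Level of each membrane mucin (CPM, log axis, exact 95% intervals) in epithelial or tumour cells of the 4 tumour libraries, with late KIC split into Vim-high and Epcam-high cells; open triangles mark 0 UMIs and intervals reaching below the axis are cut there. Muc1 lies at 9.39 CPM in Vim-high cells of late KIC and between 106 and 416 CPM in the 4 Epcam-high sets.

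A like difference was seen inside late KPfC. Its 482 Epcam-high cells were clustered again with all mucin genes left out, which gave 6 sub-clusters. In the one led by Tnc, Timp1, Vim and Fn1 (70 cells, Vim at 913 CPM), Muc1 stood at 66.2 CPM (52.0 to 83.1) against 490 CPM in the other 5 together, 7.40-fold lower (5.87 to 9.45). Muc4 stood there at 1.79 against 47.3 CPM (26.4-fold, 7.24 to 219) and Muc20 at 2.68 against 13.7 CPM (5.10-fold, 1.68 to 25.3). This sub-cluster still held Epcam at 1377 CPM, close to the 1243 CPM of the largest sub-cluster, and its cells were not shallow (median 13177.5 against 8082 UMIs). The highest Muc1 was in that largest sub-cluster (137 cells, led by Gkn2, Ctrb1, Gkn1 and Tff1), at 669 CPM (626 to 715) with a UMI in 92.7% of cells. The sub-cluster led by Reg3g and Dmbt1 had 598 CPM, the one led by Sprr1a and Ero1l 440 CPM, and the one led by the cycling genes Hist1h2ap and Cdc20 284 CPM. Muc4 and Muc20 did not keep the same order here: in the cycling sub-cluster Muc4 (14.4 CPM) was low and Muc20 (19.0 CPM) was at its highest, though its interval (12.7 to 27.3) overlaps others. The 34 cells led by Retnla, a macrophage gene, also held Cd74 at 1834 CPM, against 134 to 282 CPM in the others; its part in their mucin values was not tested.

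**Figure D3:**
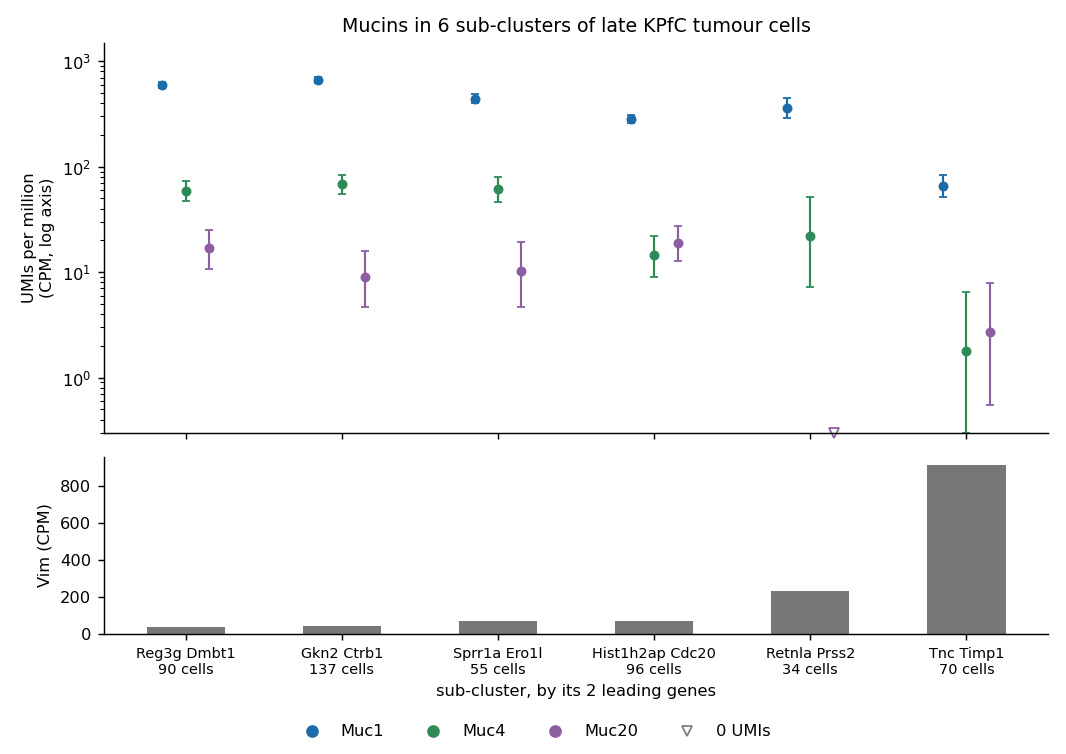
Upper panel: Muc1, Muc4 and Muc20 (CPM, log axis, exact 95% intervals, open triangle for 0 UMIs) in 6 sub-clusters of late KPfC tumour cells ordered by Vim; lower panel: Vim (CPM). The sub-cluster led by Tnc and Timp1 has the highest Vim, 913 CPM, and the lowest Muc1, 66.2 CPM.

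A further 9 late KPfC cells fell into the Vim-high cluster, and none of the 5 members had a UMI in them (a count of 0 allows 16.8 CPM). These 9 cells held Krt8 at 364 CPM. In both tumours, then, the cells with most Vim held least Muc1. Below the highest Vim the order was not kept. In late KPfC the sub-cluster led by Retnla had Vim at 231 and Muc1 at 364 CPM, both above the cycling one (70.8 and 284 CPM). Between tumours it did not hold either, since Epcam-high cells of late KIC had Vim at 1273 and Muc1 at 266 CPM. The transcription factors Zeb1 and Zeb2, known repressors of epithelial genes, stood at 20.8 and 36.7 CPM in Vim-high and 7.38 and 5.53 CPM in Epcam-high cells of late KIC. Snai1 stood at 4.55 and 1.84 CPM in the same 2 sets. The Epcam-high values rest on 4 UMIs of Zeb1, 3 of Zeb2 and 1 of Snai1. In Epcam-high cells of early KIC and late KPfC Zeb1 stood at 6.82 and 6.05 CPM and Zeb2 at 17.1 and 14.7 CPM. Whether these factors have a part in the lower Muc1 was not tested.

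For late KIC against early KIC, the same model at 2 ages, the sum of the 5 members was lower in late KIC over all epithelial or tumour cells (33.2 against 108 CPM, log2 -1.70, 3.24-fold, 2.53 to 4.12). Muc1 was called lower (27.7 against 105 CPM, log2 -1.92, 3.79-fold), as were 25.0% of 11211 genes. Muc3, the other member with enough UMIs, was not called. Its 4.62 CPM against 0 UMIs is 1.36-fold with 3 counts put in place of 0 (lower limit of the interval 1.05-fold). Of all genes 10.6% were called higher. In the Epcam-high cells the direction turned: the sum was 339 against 108 CPM (log2 1.65, 3.14-fold, 2.44 to 4.07) and Muc1 266 against 106 CPM (log2 1.33, 2.51-fold, 1.92 to 3.30). Muc3 stood at 62.7 CPM against 0 UMIs (lower limit of the interval 14.2-fold). The 2 sets were cells of different clusters. All 38 late KIC cells lay in the cluster led by Tff1, Tff2 and Wfdc2, which held 6 early KIC cells. The other 349 early KIC cells lay in the one led by Tstd1 and Ambp. That cluster also held the 9 epithelial or tumour cells of normal pancreas and 0 cells of late KIC. The part of this difference in cells in the ratios was not tested. Between the Epcam-high sets both Muc1 and Muc3 were called higher in late KIC, with 9.51% of 7353 genes called higher and 21.6% called lower. Clustering each library on its own also turned the sum, to a log2 ratio of 1.95; late KIC then kept 184 UMIs of the members, as in the Epcam-high cells. The direction of this comparison thus changed with whether the Vim-high cells were counted as tumour cells. With them counted, its size also depended on the weight of deep cells: the log2 ratio of the sum was -0.20 (-1.01 to 0.59, 24 against 35 UMIs) with each cell thinned to 1000 UMIs, and -0.81 as a mean of per-cell CPM.

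For late KIC against late KPfC, at the same age, the sum was 33.2 against 456 CPM (log2 -3.78, 13.7-fold lower, 12.1 to 15.7); the log2 ratio was -2.52 with cells thinned and -3.01 as a mean of per-cell CPM. Muc1 (14.6-fold, 12.7 to 16.9), Muc4 (145-fold, 39.7 to 1204) and Muc20 (21.7-fold, 8.14 to 81.7) were called lower in late KIC, where 15.6% of 12119 genes were, and Muc3 was called higher (7.66-fold, 2.74 to 29.7), where 9.0% were. Among Epcam-high cells Muc1 was no longer called (266 against 416 CPM, log2 -0.65), nor was Muc20 (7.38 against 11.8 CPM). Muc4 stayed lower (3.69 against 39.4 CPM, 10.7-fold, 2.93 to 88.7) and Muc3 higher (62.7 against 0.620 CPM, 101-fold, 36.1 to 392), with 4.82% of 10835 genes called lower and 3.71% called higher. The Muc4 and Muc3 differences were thus also called between the Epcam-high sets. These were alike in Epcam (1251 and 1460 CPM) but not in Vim (1273 against 209 CPM), whose part was not tested. The late KIC side of Muc3 rests on 6 cells and that of Muc4 on 1.

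For late KPC against late KPfC, both late tumours with a Trp53 lesion, the sum was 801 against 456 CPM (log2 0.81, 1.76-fold, 1.55 to 1.98), which is under 2-fold; with cells thinned to 1000 UMIs the log2 ratio was 0.00022 (-0.63 to 0.58), and as a mean of per-cell CPM 0.38. Muc3 was called higher in late KPC (log2 9.23, 601-fold, 229 to 2239) and so was Muc4 (log2 1.64, 3.11-fold, 2.19 to 4.31), where 8.91% of 10907 genes were; 3.75% were called lower and no member among them. Muc20 (1.69-fold, 0.66 to 3.66) and Muc1 (log2 -0.44) were not called. Leaving out the 2 cells with most Muc3 brought the Muc3 log2 ratio to 7.79 and the sum to 0.35, and left Muc4 at 1.70. The Epcam-high cells were 61 of the 62 in late KPC and 482 of the 491 in late KPfC. They held all the UMIs of Muc3 (131 and 4) and of Muc4 (43 and 254). Muc3 (log2 9.21) and Muc4 (log2 1.62) were therefore called among them as before, which is no separate check. Of 10826 genes there, 9.14% were called higher and 3.57% lower. These 3 comparisons share libraries and are not independent of each other.

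**Figure D4:**
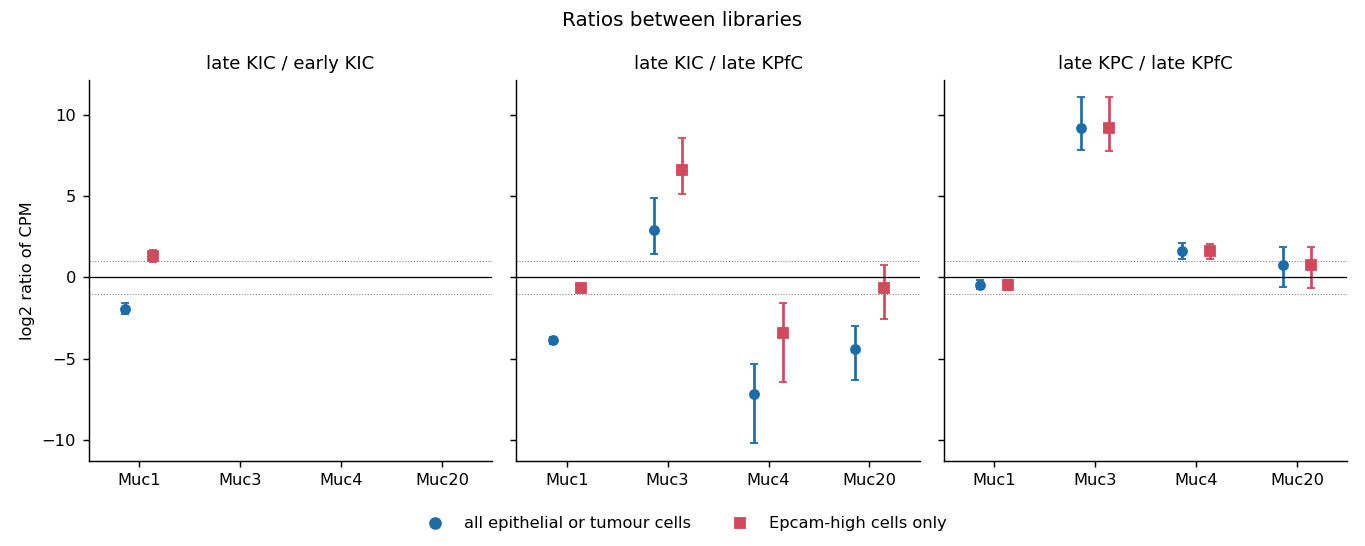
Log2 ratio of CPM with exact 95% intervals for 3 pairs of libraries, over all epithelial or tumour cells (circles) and over Epcam-high cells (squares); dotted lines mark 2-fold, and members with under 20 UMIs over both libraries or 0 in one are not drawn. Muc1 of late KIC against early KIC goes from -1.92 to 1.33. The late KPC against late KPfC ratios are nearly the same because both sets hold nearly the same cells there.

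In late KPC Muc3 and Muc4 were often found in the same cells. Of the 15 cells with a Muc3 UMI, 12 also had Muc4, against 7 of the other 47, and 12 had Muc1, against 17 of 47. The cells with Muc3 were deeper (median 8352 against 2121 UMIs), which by itself raises the chance of seeing a second gene. Among the 23 cells with at least 5000 UMIs, 10 of 11 with Muc3 had Muc4 and 6 of 12 without did; for Muc1 the counts were 10 of 11 and 10 of 12, and for Muc20 they were 1 of 11 and 3 of 12. These are few cells, and the differences were not tested. A total of 12 of the 62 cells had UMIs of 3 or 4 members. In late KPfC 26 of 491 cells did, in late KIC 1 of 280 and in early KIC 0 of 356.

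Within each tumour library 1 to 3 of the members were called higher in epithelial or tumour cells than in the remaining cells (neither acinar, epithelial nor mesothelial). In early KIC Muc1 was 16.0-fold higher (10.97 to 23.7) in epithelial or tumour cells, with 27.3% of 11598 genes called higher. In late KIC Muc1 was 12.8-fold (6.81 to 27.0) and Muc3 21.3-fold higher (3.58 to 865), with 24.4% of 11960 genes. In late KPfC Muc1 (35.6-fold, 30.7 to 41.4), Muc4 (38.4-fold, 23.5 to 67.0) and Muc20 (15.03-fold, 8.28 to 29.5) were called, with 32.6% of 12983 genes. In late KPC Muc1 (66.4-fold, 34.7 to 142), Muc3 (268-fold, 89.8 to 1318) and Muc4 (against 0 UMIs, lower limit of the interval 68.6-fold) were called, with 20.6% of 8177 genes. No member with at least 20 UMIs was lower in epithelial or tumour cells of these libraries. Against acinar cells of early KIC, Muc1 in its epithelial or tumour cells was 1.94-fold higher (1.38 to 2.73) and not called, where 85.9% of 6737 genes were called higher and 1.78% lower. In normal pancreas Muc1 was 3.24-fold higher (2.47 to 4.30) in acinar than in remaining cells, where 2.2% of 10631 genes were called higher and 90.2% lower, and where the 10 acinar markers alone stood at a summed 558280 CPM in acinar cells.

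Outside epithelial cells the members were low as averages over a compartment, though some classes of cells stood higher. In the remaining cells Muc1 stood at 12.5 CPM in normal pancreas, 6.58 in early KIC, 2.17 in late KIC, 11.4 in late KPfC and 4.51 in late KPC. Free RNA in droplets gives UMIs to cells that do not make a gene, and its part in these values was not tested. In late KPfC the ratio of remaining to epithelial or tumour cells was 2.81% for Muc1, 2.60% for Muc4 and 6.65% for Muc20 (13 UMIs in the remaining cells). For other genes it was 2.79% (Epcam), 2.17% (Krt18), 2.63% (Tff1), 1.44% (Cldn4) and 12.2% (Spp1). In early KIC it was 6.25% for Muc1, 3.84% for Epcam and 3.39% for Krt18. In late KIC it was 7.83% for Muc1, 22.6% for Epcam and 1.31% for Krt18. In late KPC it was 1.51% for Muc1, 0.810% for Epcam and 0.341% for Krt18. In normal pancreas the remaining cells held Muc1 at 30.9% of the acinar level, beside 21.3% to 22.1% for the enzyme genes Cpa1, Pnlip, Cela1 and Prss2. Of its 64 Muc1 UMIs there, 35 lay in 31 of the 229 T or NK cells (34.2 CPM, 23.8 to 47.5), which also held the 10 acinar markers at 56.8% of the acinar level. The part of acinar RNA in that value was not tested.

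Mesothelial cells are known for Msln and Muc16, a membrane mucin that binds Msln, and the 5 members were low in them. Muc1 had 1 UMI each in normal pancreas and early KIC and stood at 5.48 CPM in late KIC (3 UMIs), 11.7 in late KPfC (26 UMIs) and 0 in late KPC (a count of 0 allows 8.71 CPM). Against the remaining cells of the same library, late KIC and late KPC had under 20 Muc1 UMIs over both sets, so no call was possible there. In normal pancreas (ratio 0.279, 0.007 to 1.61) and early KIC (1.44, 0.036 to 8.50) Muc1 was not called, with wide intervals. In late KPfC it was not called either, and the 2 levels were nearly equal (11.7 and 11.4 CPM, ratio 1.03, 0.65 to 1.55). Of 12348 genes there, 26.7% were called higher in mesothelial cells and 12.9% lower. In the other 4 libraries 10.6% to 21.0% of genes were called higher in mesothelial cells, and 5.22% (normal pancreas), 3.52% (early KIC), 11.3% (late KIC) and 14.1% (late KPC) lower. Muc13 had 6 UMIs in 5 of 161 mesothelial cells of late KPfC (2.69 CPM, 0.99 to 5.86) and 2 UMIs in 2281 remaining cells (0.117 CPM), too few to be called.

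Over the 16 compartment-by-library sums with at least 30 cells, the genes most like each member were taken by Pearson's r of log2(CPM + 1), as a description without a test, since the sums share libraries and depth. Nearest to Muc1 were Kcnk1 (r 0.93), Tmprss2, a serine protease of epithelial surfaces (0.92), and Hgfac (0.92). Nearest to Muc4 were Duoxa2 (0.97), Cldn18, a tight-junction gene of stomach (0.97), and Eps8l3 (0.96), and nearest to Muc20 were Cldn18 (0.98), Tmem45b (0.98) and Sptssb (0.98). Muc4 and Muc20 were also like each other (0.96), with the overlap of Muc4 exons with the last exon of Muc20 as a limit. Muc3 had weaker matches in Acan (0.86), Crisp1 (0.84) and Cwh43 (0.83), as had Muc13 (Thsd7a, 0.82), which rests on 31 UMIs. Muc1 was less like Muc4 (0.70) and Muc3 (0.49) than like Muc20 (0.77).

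Other genes of mucin biology were counted from 5 lists, to be read beside the shares of all genes called: 9.0% higher and 15.6% lower for late KIC against late KPfC, and 8.91% higher and 3.75% lower for late KPC against late KPfC. Of 9 other membrane mucins listed, 6 were in the table and 2 measured, Cd164 and Parm1; against late KPfC both were lower in late KIC (Parm1 18.8 against 59.2 CPM and Cd164 85.7 against 173 CPM) and neither was called in late KPC. Of the secreted mucins and their partners, 4 of 6 measured were lower in late KIC than in late KPfC and 0 higher (median log2 -3.31, all genes -0.12). Widest were the gel-forming mucin Muc6 (1.85 against 34.3 CPM) and the trefoil peptide Tff2 (258 against 4211 CPM). Between the Epcam-high cells of these libraries 0 of 6 was lower and 2 were higher (median log2 0.19, all genes -0.04). In late KPC against late KPfC 2 were higher, Fcgbp (66.5 against 3.17 CPM) and the gel-forming mucin Muc5ac (16.6 against 2.72 CPM, 6 and 18 UMIs), and 2 lower, Tff2 (319 against 4211 CPM) and Muc6 (8.31 against 34.3 CPM). The trefoil peptide Tff1 was not called (3917 against 2444 CPM), so the trefoil peptides did not move together.

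Enzymes that build O-glycans were mostly lower in late KIC than in late KPfC: 11 of 21 measured were lower and 3 higher (median log2 -1.37). Lowest were the fucosyltransferase Fut2 (3 against 86 UMIs) and B3gnt3 (4.76 against 28.7 CPM), and the sialyltransferases St6galnac4 (25.2 against 4.23 CPM) and St3gal2 (16.3 against 6.34 CPM) were higher. Late KPC differed from late KPfC in 2 higher (St3gal1 and St3gal4) and 2 lower (B3gnt3, with 0 against 190 UMIs, and Gcnt3) of 20. Of the binding partners and sheddases, 3 of 17 were higher in late KIC than in late KPfC, led by the galectin Lgals1 (5161 against 793 CPM) and Msn (575 against 210 CPM), and 2 were lower, Erbb3 (3.96 against 56.7 CPM) and Egfr (11.6 against 25.5 CPM), a share of lower genes no larger than over all genes; in late KPC 0 of 17 was called. Of the epithelial transcription factors, 10 of 19 were lower in late KIC than in late KPfC and 0 higher (median log2 -1.46), widest for Ovol2 (0.264 against 8.45 CPM) and Spdef (0.925 against 18.1 CPM), and in late KPC 3 were higher (Gata4 and Gata6 among them) and 1 lower (Spdef, 1 against 120 UMIs).

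Within late KIC the same lists differed between Vim-high and Epcam-high cells. All 4 measured secreted mucins and partners were lower in Vim-high cells (Tff2 24.6 against 3276 CPM, Tff3 0.712 against 36.9 CPM), as were 6 of 13 transcription factors and 0 higher (Ehf 1.99 against 88.5 CPM and Elf3 4.55 against 105 CPM). Of the O-glycan enzymes 5 of 16 were lower and 2 higher, and of the binding partners 3 of 17 were lower and 3 higher. Over all genes 7.4% were called lower and 4.97% higher. Among Epcam-high cells of late KIC and late KPfC, 0 of 19 transcription factors was lower and 1 higher, and 2 of 20 O-glycan enzymes were lower and 1 higher. Of the secreted mucins and partners 0 of 6 was lower and 2 higher, and of the binding partners 0 of 17 was lower and 2 higher. Beside these, 4.82% of all genes were called lower and 3.71% higher. The share of all genes called lower also went down, from 15.6% to 4.82%, with 38 late KIC cells in place of 280.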

How the data were processed

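Single cells of 5 mouse tissues were measured with 10x Chromium 3′ libraries, 1 per group of the labels. The deposited values are UMI counts per gene and barcode, which the authors made with Cell Ranger 2.1.1 on GRCm38, per the submitters' processing notes; no source read here states the annotation release or strand use. A barcode was kept from 200 detected genes and 500 UMIs upwards if mitochondrial genes took no more than 20% of its UMIs. The 12 mucin genes were left out of clustering (scanpy 1.11.5 with leidenalg 0.10.2; 2000 variable genes, 30 components, 15 neighbours, resolution 1), which gave 32 clusters, 3 of them unnamed. Clusters were named by marker scores within a library; no doublet caller was run, so doublets remain, and cell types may differ from the study's own. The intended rule for mesenchymal tumour clusters found none, because Col1a1 was over 2-fold above the median, so the Vim-high cluster was set apart after its values were seen. UMIs were summed per compartment and library and divided by the total (CPM), with exact Poisson intervals; shares have exact binomial (Clopper-Pearson) and ratios exact conditional intervals (scipy 1.17.1), all at 95%. Floors use 3 counts over a compartment of a library, compartments under 30 cells were not compared, and ratios need 20 UMIs. The calls were tested on simulated data. The simulation drew independent Poisson counts, as the intervals assume, so it cannot show how spread between cells or mice affects the calls. From a list, the 2 genes with the widest fold each way among those called were named. Members and lists were chosen with earlier results of these data known. The ratios between libraries have no replicate check.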

Additional observations from a re-analysis of the deposited data

Results flagged for a closer look

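Barcodes that the filter on genes, UMIs and mitochondrial share removed were summed apart from the comparisons. In the 210 removed barcodes of late KPfC, Muc1 stood at 188 CPM (163 UMIs, 161 to 220) and Muc4 at 13.9 CPM (12 UMIs, 7.17 to 24.2), and Muc20 had 5 UMIs. In the 258 removed barcodes of normal pancreas, Muc1 stood at 4.93 CPM (5 UMIs) and Muc4 had 0 UMIs. Both signals thus lie above the level in the control library, in barcodes that no comparison used. The removed barcodes of the other 3 libraries held no UMI of any member.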

How the results depend on the processing

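No paired analysis was possible because each group has 1 library and the labels give no replicate numbers; for the same reason no library could be left out of a group. Direction and call of the 4 sums, and the number of tumour libraries led by Muc1 (3), stayed the same with mucin genes left in the clustering, with a stricter filter on cells, with finer clusters, with cells of under 2 epithelial markers left out and with shared barcodes left out. Without the Vim-high cluster the sum of late KIC against early KIC had a log2 ratio of 1.65 (Muc1 1.33) and that of late KIC against late KPfC -0.47; with each library clustered on its own these were 1.95 (Muc1 1.62) and -0.091; late KIC then kept 184 of 251 UMIs of the members. Each cell thinned to 1000 UMIs gave sums of -0.20 for the late to early KIC ratio, -2.52 for late KIC over KPfC and 0.00022 for late KPC over KPfC, from 24 UMIs in late KIC and 27 in late KPC; the mean of per-cell CPM gave -0.81, -3.01 and 0.38 in the same order. Both of these settings weight shallow cells as much as deep ones, and under both Muc1 led in 4 libraries. Leaving secretory, haemoglobin and mitochondrial genes out of the total gave -0.58 for the acinar sum. Without the 2 late KPC cells with most Muc3, chosen after seeing the data, the late KPC against late KPfC sum was 0.35 and Muc1 led in 4 libraries. Of 334 other values, 291 stayed within the interval of the reported value, 41 moved outside it and 2 reversed (the Muc1 ratios above). Muc13 rests on 31 UMIs in all compared compartments, and in early KIC a count of 0 allows 3.40 CPM for Muc3 and Muc4.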

Other observations

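Muc4 was also found in islet cells, which were examined after its values were seen. All 7 Muc4 UMIs of normal pancreas lay in 6 of its 29 endocrine cells (10.7 CPM, 4.29 to 22.0), and all 3 of early KIC lay in 2 of its 183 endocrine cells. By the most abundant of Ins1, Gcg, Sst, Ppy and Ghrl, 7 of these 8 cells were led by Ins1, an insulin gene of beta cells, and 1 by Sst. Ins2 was not among the genes ranked. They were deep cells, with 7093 to 60582 UMIs each. Of 4 Muc20 UMIs in early KIC, 2 lay in endocrine cells.

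In early KIC and late KPfC most Muc13 UMIs lay outside epithelial or tumour cells, as did most UMIs of all genes. In early KIC 7 of its 12 UMIs were in fibroblasts (7 of 877 cells, 3.76 CPM, 1.51 to 7.74). Epithelial or tumour cells held 1 (1.13 CPM, 0.03 to 6.31), and the intervals overlap. These cells held 883509 of the 8306884 UMIs of that library. In late KPfC 6 of 10 were in mesothelial cells and 2 in epithelial or tumour cells, which held 6625943 of the 25885026 UMIs of that library. In normal pancreas all 8 Muc13 UMIs lay in 5 of the 919 remaining cells (1.57 CPM, 0.68 to 3.09). Its acinar cells held 0 (upper limit of the interval 0.443 CPM).

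Among 123 unnamed cells of late KPfC Muc1 stood at 74.9 CPM (37 UMIs in 35 cells), against 9.10 CPM in the macrophages of the same library. Of these cells 115 formed 1 cluster in which Epcam stood 3.48 and Krt8 3.62 above the median on the log2 scale, as did Dcn, a fibroblast gene (3.97), and which had the mitochondrial genes mt-Atp6, mt-Co3 and mt-Nd4 among its 10 leading genes. Their part in the Muc1 value was not tested.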
